A study of Homo sapiens with 6 samples.

Results

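ABC transporters are membrane proteins that use ATP to move lipids, sterols, bile salts, peptides, metal complexes or drugs across membranes. Each carries nucleotide-binding domains that bind and split ATP and membrane-spanning domains that form the path for the cargo. Full transporters hold the whole set in 1 protein, and shorter ones form dimers. In T cells and their leukaemias the family is known for drug efflux, for cholesterol export that limits membrane cholesterol, and for fatty acid entry into peroxisomes. The genes described here are those whose symbol is ABCA, ABCB, ABCC, ABCD or ABCG followed by a number. There were 37 of them among 17687 genes with a named probe set, 12 of subfamily A, 8 of B, 9 of C, 3 of D and 5 of G. Each had 1 probe set. RefSeq holds 41 protein-coding genes with such symbols, and the other 4 are not analysed here.

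The cells were Jurkat, a human line of T cell acute lymphoblastic leukaemia (T-ALL), grown in RPMI medium with 10% serum. In the 3D group (3 arrays) they were mixed into bovine type I collagen at 1.7 mg/mL, neutralised with bicarbonate and Hepes buffer, kept 1 h while the gel set and then 2 h under medium. In the suspension group (3 arrays) they stayed in suspension for 3 h. Both groups come from 1 cell line, and the labels number biological replicates 1 to 3 in each without saying what separated them. Every p-value therefore sets the group difference against the variation among these samples alone. Values are deposited log2 expression levels, on which a difference of 1 is a 2-fold change. In RNA from whole cultures, fewer cells expressing a gene and less RNA per cell cannot be told apart.

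Array medians over all probe sets ran from 5.55 to 5.64, and pairwise correlations between arrays over all named genes from 0.971 to 0.991. The 13 T cell markers examined, among them the CD3 chains and LCK, had mean levels from 6.45 to 11.74. Their median log2 difference, 3D minus suspension, was -0.21, with 9 of 13 lower in 3D and 6 lower in all 3 pairs. Over all genes the median was -0.02, 47.4% had a difference above 0 and 19.8% were lower in all 3 pairs. In limma (adjusted p under 0.05) 0 of the 13 markers passed over all genes, with or without the replicate number in the model as a block. With that block among genes of mean at least 6, CD247 (adjusted p 0.0133) and BCL11B (0.0457) passed lower, as 3.78% of those genes did. The part of this in the members' differences was not tested. Of 26 measured markers of B, myeloid, stromal, epithelial, endothelial and erythroid cells, 5 had a mean of 6 or more, and 0 of the 26 passed the test between the groups. The median log2 difference of these 26 was -0.05. Probe sets differ in brightness, so levels are compared between arrays and not between genes.

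The promoters of ABCA5 and ABCD3 are shown because these were the members with a mean level of at least 6 whose groups did not overlap, as described below. ABCA5 reached that mean through its 3D arrays, as its suspension mean was 5.72, so the choice drew on the values compared here. The promoters come from RefSeq on GRCh38.p14 and run from 250 bases before to 50 bases after the gene start, on the gene's own strand. The ABCA5 window is chr17:69327084-69327383 on the minus strand, and the ABCD3 window is chr1:94418139-94418438 on the plus strand. Capitals mark GC boxes, the letters GGGCGG or their reverse complement CCGCCC, which transcription factors of the SP and KLF families bind.
ABCA5: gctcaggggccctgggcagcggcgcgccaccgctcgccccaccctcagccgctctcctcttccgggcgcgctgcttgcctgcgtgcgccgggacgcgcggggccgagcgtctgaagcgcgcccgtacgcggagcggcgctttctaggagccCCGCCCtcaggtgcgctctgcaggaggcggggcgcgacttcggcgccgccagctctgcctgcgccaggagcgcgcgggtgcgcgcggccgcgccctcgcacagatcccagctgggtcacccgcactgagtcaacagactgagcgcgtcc
ABCD3: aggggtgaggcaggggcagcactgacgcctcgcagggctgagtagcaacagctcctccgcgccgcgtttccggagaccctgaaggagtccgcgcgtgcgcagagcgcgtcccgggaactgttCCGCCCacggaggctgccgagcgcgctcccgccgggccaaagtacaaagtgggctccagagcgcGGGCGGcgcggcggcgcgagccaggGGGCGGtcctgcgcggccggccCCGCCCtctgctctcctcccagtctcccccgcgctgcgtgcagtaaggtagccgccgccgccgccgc
Both windows are rich in CpG pairs. ABCA5 has 45 and ABCD3 42, against a median of 14 over 35116 RefSeq promoter windows of the same length. The windows of ABCA5's neighbours on chromosome 17 are poor in them, with 1 and 3 in those of ABCA10, 2 in that of ABCA6 and 1 in that of ABCA9. The median over the members' windows was 16. Rich windows occurred among members of both directions, with 66 in a window of ABCA2 and 42 in that of ABCA3, both lower in 3D, and 47 in that of ABCC4, higher.

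Other motifs were searched on both strands in the 47 windows of the 30 members that have one. The GC box was in 22 of these windows and in 45.0% of all windows. The E-box CACGTG, bound by MYC and by the lysosomal regulator TFEB, was in 8 of the 47 and in 7.26% of all, and in neither window printed here. The FOXO site TGTTTAC was in 1, that of ABCA6, and in 3.42% of all. Several windows belong to the same gene and overlap, as do those of ABCG5 and ABCG8, which start in opposite directions and share 231 bases.

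The comparison asked which transporter transcripts differ after 3 h in collagen. ABCA5 had the largest difference among the 37 and among all 17687 genes, 2.56-fold higher in 3D. ABCD3, which carries fatty acids into peroxisomes, was 1.41-fold higher. ABCA10, beside ABCA5 on chromosome 17, was 1.54-fold higher at a dim level. The lowest difference was that of ABCB8, a mitochondrial transporter, at a ratio of 0.77. Without a replicate block 0 of the 37 passed limma's test after adjustment, as 0% of all genes did. At an unadjusted p under 0.05 (limma) 3 members (8.11%) were higher and 0 lower, near the 5.9% and 3.97% of all genes. With the pairs of equal replicate number in the model as a block, ABCA5 passed and the other 36 did not. In that fit 0.0905% of all genes passed higher and 0% lower, and the basis of the pairing is weak.

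ABCA5 encodes a full transporter of late endosomes and lysosomes that has been linked to the handling of cholesterol and sphingolipids. It measured 6.90, 7.06 and 7.27 in 3D replicates 1, 2 and 3, against 5.07, 5.83 and 6.26 in the suspension replicates of the same numbers. The lowest 3D array thus lay above the highest suspension array, and suspension replicate 1 was the lowest of the 6. The means were 7.08 ± 0.19 in 3D and 5.72 ± 0.60 in suspension (SD, n = 3 each). The log2 difference was 1.36 ± 0.27 (SE), with a 95% interval of 0.77 to 1.94. It was higher in each pair of equal replicate number, by 1.83, 1.23 and 1.01.

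The adjusted p of ABCA5 over all genes was 0.330 in limma without a block and 0.0394 in limma with it. The block call rests on the pairing of the replicates, whose basis is weak (given with the processing). By an exact permutation test (two-sided, 3 arrays against 3) p was 0.1, the lowest value that this design can reach. With the block 16 genes passed higher, or 0.0905% of all, and 0 passed lower. ABCA5's difference ran from 1.03 without suspension replicate 1 to 1.63 without suspension replicate 3. Among all genes 23, or 0.13%, were at least 2-fold higher in 3D, and among the members it was ABCA5 alone.

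**Figure D1:**
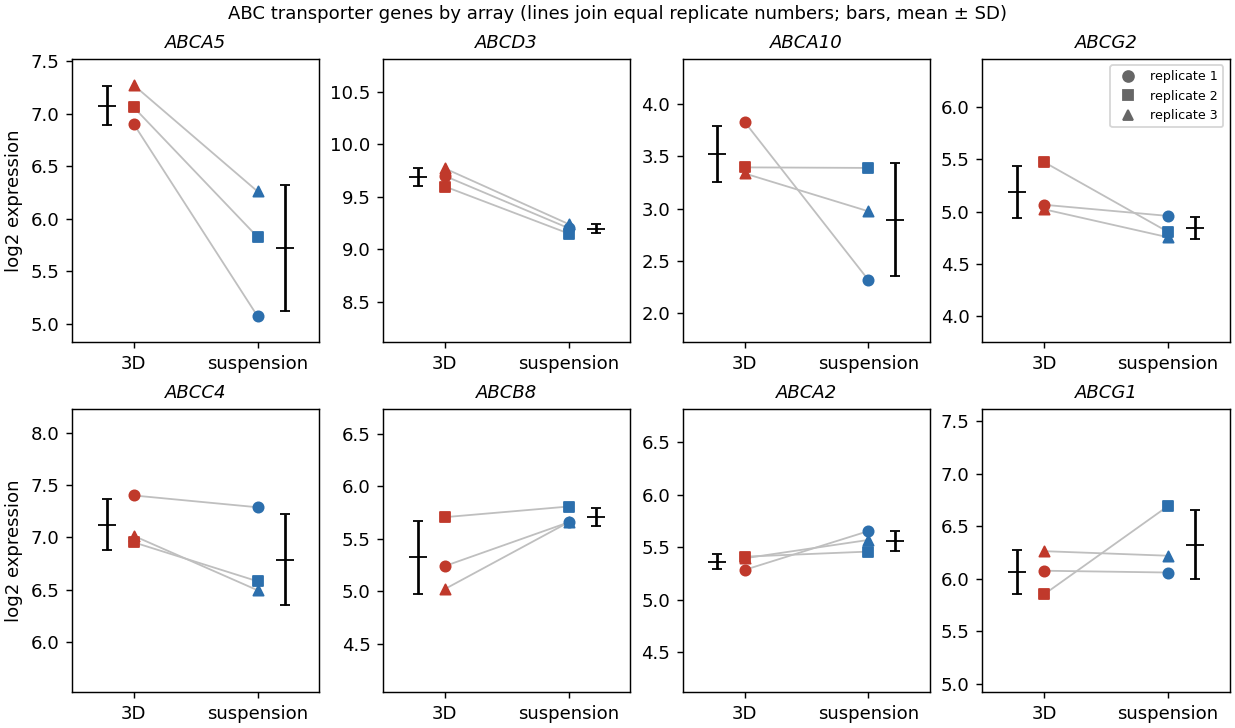
Log2 expression of 8 ABC transporter genes on each array (y axis, with the same height in log2 units in every panel), 3D in red at the left and suspension in blue at the right, with lines joining equal replicate numbers and black bars for the mean ± SD of 3 arrays. The groups of ABCA5, ABCD3 and ABCG2 do not overlap, with 3D higher, and those of ABCA2 do not overlap, with 3D lower.

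ABCA5 lies in a row of 5 subfamily A genes on chromosome 17, in the RefSeq order ABCA8, ABCA9, ABCA6, ABCA10 and ABCA5, with no other protein-coding gene between them. The other 4 are relatives of one another in sequence, and their cargo is less well known. ABCA10 measured 3.83, 3.39 and 3.33 in 3D replicates 1 to 3, against 2.32, 3.39 and 2.97 in suspension. Suspension replicate 1 was the lowest array for ABCA10 as it was for ABCA5, and the groups overlapped. The log2 difference of ABCA10 was 0.62 ± 0.26 (SE), with a limma adjusted p of 0.485, and 0.214 with the block. The pair differences were 1.51, 0.01 and 0.36, and without suspension replicate 1 the difference was 0.34.

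The 3 members farther along the row had small differences. ABCA6 measured 3.93, 3.53 and 3.35 in 3D, against 3.28, 3.85 and 3.29 in suspension. ABCA8 had 4.45, 4.50 and 4.32 in 3D, against 4.51, 4.37 and 4.26 in suspension. ABCA9 had 3.43, 3.75 and 3.58 in 3D, against 3.42, 3.77 and 3.54 in suspension. In these 3 genes each group's range overlapped the other's, and the log2 differences were 0.13, 0.05 and 0.01. The 95% intervals ran from -0.34 to 0.60 for ABCA6, from -0.30 to 0.39 for ABCA8 and from -0.36 to 0.38 for ABCA9. On the far side of ABCA5, MAP2K6, a kinase gene of the p38 pathway, had a difference of 0.08, and KCNJ16, a potassium channel gene, -0.10. On the ABCA8 side, FAM20A had -0.26, with pairs of both signs. WIPI1, an autophagy gene, had -0.48 and was lower in 3D in each pair, by 0.57, 0.39 and 0.49. Of all genes 19.8% were lower in each pair. WIPI1 did not pass limma's test over all genes, as 0 genes passed lower with or without the block.

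**Figure D2:**
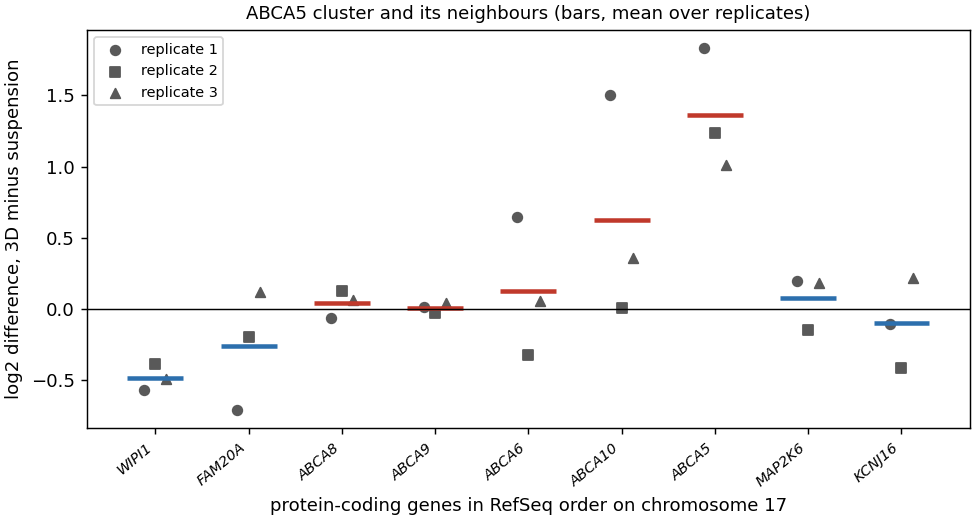
Log2 difference, 3D minus suspension (y axis), of 9 protein-coding genes in RefSeq order on chromosome 17 (x axis), with a point for each pair of equal replicate number and a bar for the mean, red for subfamily A genes and blue for their neighbours. ABCA5 stands at 1.36 with all 3 points above 1, ABCA10 at 0.62 with replicate 1 far above the other points, and the other 3 subfamily A genes at 0.01 to 0.13. WIPI1 stands at -0.48 with all 3 points below 0.

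The shorter, dimer-forming transporters of peroxisomes and lysosomes that were measured, ABCD2, ABCD3, ABCD4 and ABCB9, were all at or above 0 in difference. Of these 4 genes, 0 passed without the block or with it, and the median log2 difference was 0.23. The lysosomal members ABCA5 and ABCA2 are not among them and are described in other paragraphs. ABCD3, also called PMP70, brings branched-chain fatty acids and bile acid precursors into peroxisomes. It measured 9.70, 9.60 and 9.77 in 3D, against 9.20, 9.15 and 9.24 in suspension. These were tight groups, 9.69 ± 0.09 in 3D and 9.20 ± 0.05 in suspension (SD, n = 3 each), and did not overlap. The log2 difference was 0.49 ± 0.15 (SE), and 0.50, 0.45 and 0.53 in the 3 pairs.

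The limma adjusted p of ABCD3 was 0.399 without the block and 0.130 with it. It was 0.0164 with the block among the 8342 genes of mean at least 6, where 10.6% of genes passed higher and 3.78% lower. ABCD3 and ABCA5 were the 2 of 8 members there to pass. ABCA5 entered that set through its 3D arrays, as its suspension mean lay under 6, so its passing there adds nothing to the values above.

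ABCD2, which carries very long-chain fatty acids, measured 3.89, 3.72 and 4.33 in 3D, against 3.97, 3.75 and 3.20 in suspension. Its log2 difference of 0.34 ± 0.23 (SE) came from replicate 3, as the other pairs differed by -0.08 and -0.03. ABCD4, needed for cobalamin to leave the lysosome, had a difference of 0.11 ± 0.21 (SE). ABCB9, a lysosomal peptide transporter, had 0.00 ± 0.16 (SE).

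Mitochondrial transporters included the member with the lowest difference. ABCB8, an inner membrane protein linked to iron export and potassium transport, measured 5.24, 5.71 and 5.02 in 3D, against 5.66, 5.81 and 5.66 in suspension. It was lower in 3D in all 3 pairs, while the groups overlapped through 3D replicate 2. The log2 difference was -0.38 ± 0.19 (SE), with a limma adjusted p of 0.537, and 0.245 with the block. ABCB10, an inner membrane protein that aids haem synthesis, measured 8.38, 7.58 and 7.80 in 3D, against 8.23, 7.21 and 7.66 in suspension. Its arrays followed the replicate number more than the group, with replicate 1 the highest in both, and its difference was 0.22 ± 0.27 (SE). The third measured, ABCB6, a porphyrin transporter, had -0.05 ± 0.19 (SE). Of these 3 genes 0 passed.

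Multidrug and organic anion efflux genes had 7 of 9 measured members higher and 2 lower in 3D, with 0.08 as the median log2 difference, and 0 passed with or without the block. ABCG2, the breast cancer resistance protein, measured 5.06, 5.47 and 5.02 in 3D, against 4.96, 4.81 and 4.76 in suspension. Its groups did not overlap, by a gap of under 0.1 between 3D replicate 3 and suspension replicate 1. The log2 difference was 0.35 ± 0.17 (SE), with a limma adjusted p of 0.537.

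ABCC4, an exporter of cyclic nucleotides and prostaglandins, measured 7.40, 6.95 and 7.01 in 3D, against 7.29, 6.58 and 6.50 in suspension. It was higher in each pair, by 0.11, 0.37 and 0.52, with replicate 1 the highest in both groups. The log2 difference was 0.33 ± 0.23 (SE), with a limma adjusted p of 0.630. ABCC2, a transporter of conjugated anions, measured 3.23, 3.36 and 3.33 in 3D, against 2.92, 3.36 and 2.90 in suspension, a difference of 0.24 ± 0.17 (SE). ABCB1, the P-glycoprotein that pumps many drugs, had 0.04 ± 0.17 (SE), with a 95% interval of -0.32 to 0.41. The remaining 5 members, ABCC3, ABCC5, ABCC10, ABCC11 and ABCC12, lay between -0.14 and 0.14.

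Cholesterol and phospholipid transporters had 6 of 10 members higher and 4 lower in 3D, none past the test, with 0.06 as the median log2 difference. ABCG1, which exports cholesterol to lipoprotein particles, measured 6.08, 5.85 and 6.26 in 3D, against 6.06, 6.69 and 6.22 in suspension. Its difference of -0.26 ± 0.20 (SE) came from replicate 2 alone, as the other pairs differed by 0.02 and 0.04. ABCA2, a lysosomal transporter known from the nervous system, measured 5.28, 5.41 and 5.39 in 3D, against 5.65, 5.46 and 5.57 in suspension. All 3 of its 3D arrays lay under all suspension arrays, as in 8.03% of all genes. The groups came nearest in replicate 2, where the pair difference was -0.05. The log2 difference of ABCA2 was -0.20 ± 0.15 (SE), with a limma adjusted p of 0.672.

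ABCG4, a relative of ABCG1, measured 3.79, 3.47 and 3.49 in 3D, against 3.76, 3.51 and 3.91 in suspension, with overlapping groups and a difference of -0.14 ± 0.17 (SE). ABCA1, which loads cholesterol onto apolipoprotein A-I, had 0.21 ± 0.23 (SE), and its pairs differed in sign, at -0.38, 0.71 and 0.29. The remaining 6 members, ABCA3, ABCA7, ABCA12, ABCB4, ABCG5 and ABCG8, lay between -0.13 and 0.23.

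Genes of the family known mainly from certain tissues, such as retina, liver or pancreatic islets, had 3 of 6 members higher and 3 lower, and their median log2 difference was 0.00. ABCC8, a subunit of the ATP-sensitive potassium channel of islets, measured 3.63, 4.04 and 3.11 in 3D, against 4.07, 3.62 and 3.71 in suspension. ABCA13, a very large subfamily A protein, measured 3.17, 3.25 and 3.33 in 3D, against 3.26, 3.14 and 2.81 in suspension. In both the groups overlapped, and the differences were -0.20 ± 0.24 and 0.18 ± 0.17 (SE). The other 4, ABCA4, ABCB5, ABCB11 and ABCC9, lay between -0.13 and 0.21, and all 6 had means under 6.

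**Figure D3:**
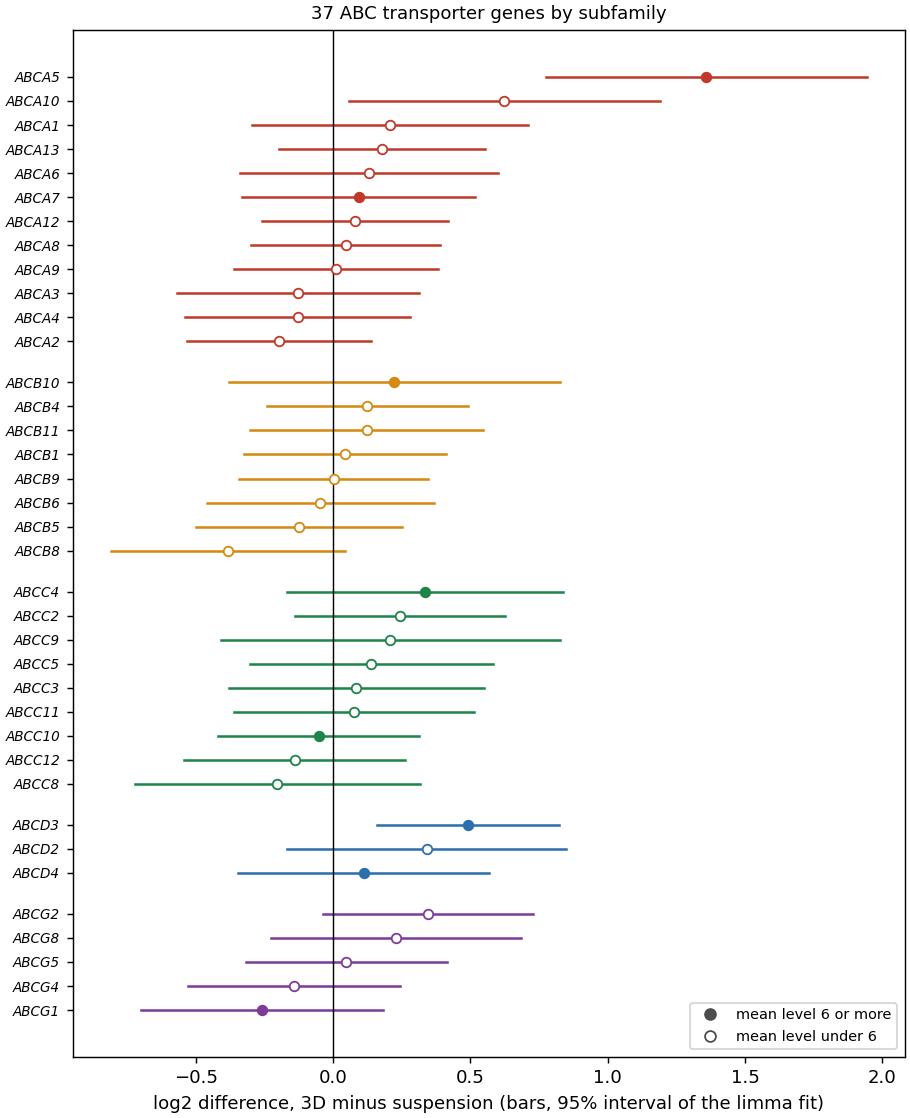
Log2 difference, 3D minus suspension (x axis), with the 95% interval of the limma fit for each of the 37 genes, grouped and coloured by subfamily, filled where the mean level over 6 arrays was at least 6. The intervals of ABCA5, ABCA10 and ABCD3 lie above 0, and those of the other 34 hold 0.

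Over the 37 members the median log2 difference was 0.08, against -0.02 over all 17687 genes, and 26 members (70.3%) had a difference above 0, against 47.4% of all genes. That count was 21 without suspension replicate 3 and 21 with gene span removed (below 0 in 16 each time), and 19 with the block and pair 3 left out, where 18 members lay below 0. Leaving out ABCA5 the median stayed at 0.08. By pair the members' medians were 0.01, 0.03 and 0.14, against -0.04, 0.05 and -0.03 over all genes, so in pair 2 the members lay under the rest. At an unadjusted p under 0.05 (limma) 3 members (8.11%) were higher and 0 lower, against 5.9% and 3.97% of all genes. The groups did not overlap for 3 members higher in 3D (8.11%) and 1 lower (2.7%), against 8.28% and 8.03% of all genes. All 3 pairs agreed for 7 members higher (18.9%) and 3 lower (8.11%), against 20.3% and 19.8%.

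ABC transporter genes are long, with a median span of 84.3 kb in RefSeq, against 25.9 kb over all named genes, and span moved with the difference in these arrays. Members of 50 kb or longer (27 genes) had a median log2 difference of 0.12, against 0.06 for all genes of that span. Members under 50 kb (10 genes) had 0.00, against -0.05 for all genes of that span. Across the 37 members the Spearman correlation of span with the difference was 0.352, and across all named genes it was 0.249. Genes share the same 6 arrays and are not independent. With each array's trend on span removed, the members' median was 0.05 and that of all genes -0.01, and ABCA5 had a difference of 1.31. ABCA5 had the largest difference of all named genes. Its percentile of 99.8 among the 651 genes spanning 75 to 90 kb was therefore fixed in advance and tells nothing about span. The part of span in the members' differences was not tested further.

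**Figure D4:**
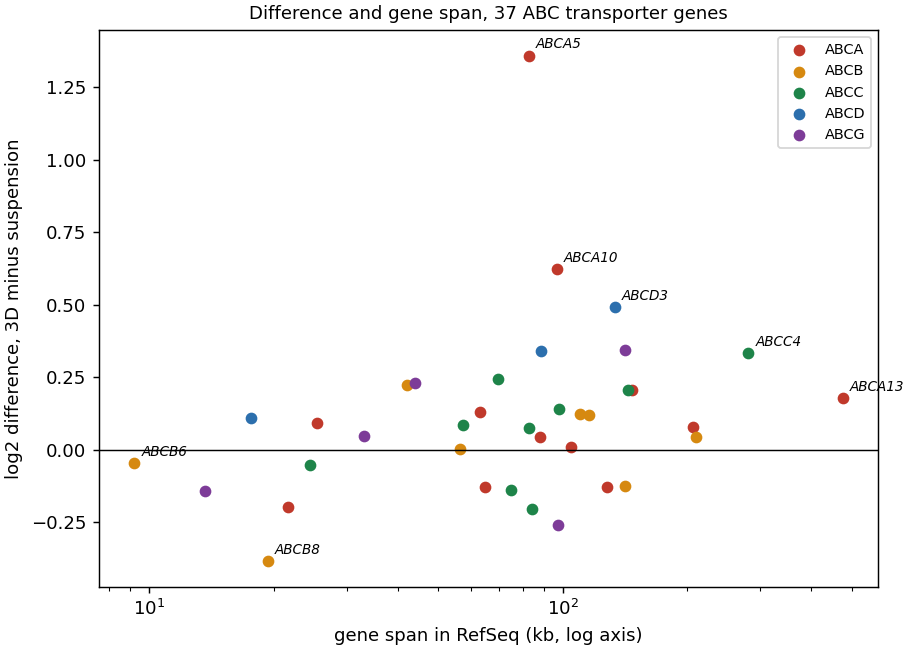
Log2 difference, 3D minus suspension (y axis), against gene span in kb on a log axis (x axis) for the 37 genes, coloured by subfamily. ABCA5 lies at 1.36 with a span of 82.8 kb, and the shortest member, ABCB6 at 9.19 kb, lies near 0.

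ABC genes with other symbols and genes of sterol control were set beside the members. Of 5 measured ABC genes outside the symbol rule 0 passed. TAP1, which with TAP2 feeds peptides to MHC class I, measured 5.28 ± 0.17 in 3D and 5.64 ± 0.06 in suspension (SD, n = 3 each), a log2 difference of -0.35 ± 0.16 (SE). TAP2 had the opposite sign, at 0.27 ± 0.16 (SE). ABCE1, a ribosome recycling factor with no membrane domain, had 0.35 ± 0.17 (SE), and ABCF3 had -0.18 ± 0.17 (SE).

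Of 7 measured sterol-sensing regulators and partners, 2 were higher, 5 lower and 0 passed, with a median log2 difference of -0.11. LPCAT3, an LXR target that remodels phospholipids, measured 7.88 ± 0.09 in 3D and 8.21 ± 0.19 in suspension (SD, n = 3 each), a difference of -0.33 ± 0.16 (SE). SREBF2 and SREBF1, the regulators of sterol and fatty acid synthesis, had -0.25 ± 0.18 and -0.24 ± 0.17 (SE). NR1H3, the LXR alpha gene, had 0.27 ± 0.21 (SE). The limma adjusted p of these 4 genes ran from 0.537 to 0.676.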

How the data were processed

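RNA of 6 Jurkat cultures was prepared with the GeneChip WT PLUS kit for Affymetrix arrays, per the labels' protocols. The authors deposited 1 log2 value per probe set and array, made with RMA and the Transcriptome Analysis Console, per the submitters' processing notes. Their versions, the probe annotation and the genome build are not given in the sources used here. Such processing shrinks differences of dim probe sets, and without detection flags a low level cannot be told from none. The values were used as deposited.

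Of 21448 probe sets, 17709 had 1 gene symbol in the platform's table, 0 several and 3739 none. All 17709 matched RefSeq (GRCh38.p14) by gene identifier. The highest-mean probe set per gene left 17687 genes. RefSeq gave names, order, spans and promoters.

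Groups came from the titles. Groups were compared in R 4.3.3 by limma 3.58.1 (lmFit, eBayes) without block or filter, two-sided, Benjamini-Hochberg adjusted over all genes, threshold 0.05, with 4 residual and 6.79 prior degrees of freedom (2 and 9.78 with the block). The fit without the block was checked on simulated data whose arrays were independent of one another. After subtracting group means, arrays of equal replicate number had correlations of 0.521 (number 1), 0.120 (number 2) and 0.337 (number 3). All exceeded 0.1, so the numbers were taken as pairs, although 3D replicate 2 correlated better with suspension replicate 3 (0.149), and suspension replicate 2 with 3D replicate 3 (0.230). The block, left-out arrays, normalization, a filter on dim genes, probe set averaging, the prior and gene span were varied. The members, lists and tests were chosen with earlier results of these data known. Named were ABCA5 and its chromosome 17 relatives, the 5 smallest p in each direction, the 3 highest levels and up to 2 genes per role list, with the rest as ranges. Plots used matplotlib 3.10.9 under Python 3.11.15.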

Additional observations from a re-analysis of the deposited data

How the results depend on the processing

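Without the replicate block 0 genes passed under any alternative run (each array left out, quantile normalization once more, median centring, a mean of at least 6, averaged probe sets, another prior, span removed), so 0 of the 37 members did. With the block 16 genes and 1 member, ABCA5, passed. With the block and pair 1, 2 or 3 left out, 21, 150 and 36 genes passed, ABCA5 each time. With the block and a mean of at least 6, 1199 genes and 2 members passed among the 8342 genes tested; the prior degrees of freedom were 25.0 there and 9.78 with the block over all genes, and the cause of the rise was not tested. ABCA5's log2 difference stayed above 0 throughout, at 1.36 with the block and from 1.03 to 1.63 with 1 array left out. With the block and pair 1, 2 or 3 left out, the difference was 1.12, 1.42 and 1.53. Apart from the fits on genes of mean at least 6, its limma adjusted p ran from 0.00247 (block, without pair 3) to 0.759 (no block, without 3D replicate 3). With the block and that filter it was 4.94e-06, which adds nothing, as ABCA5 entered that set through its 3D arrays.

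The members' median log2 difference was 0.17 over the 8 genes of mean at least 6, with or without the block. ABCA5 is among these 8 through its 3D arrays, as its suspension mean lay under 6, so the filter itself bears on that median. With arrays or pairs left out the members' median ran from 0.0057 (block, without pair 3) to 0.11. With span removed, ABCA8 turned to -0.0070 and ABCA9 to -0.048. With 1 array left out ABCA6 ran from -0.035 to 0.32, ABCA8 from -0.015 to 0.11, ABCA9 from -0.068 to 0.11, ABCB10 from -0.023 to 0.49 and ABCC8 from -0.43 to 0.038. With the block and 1 pair left out, ABCA6 turned to -0.13 without pair 1, ABCG1 to 0.030 without pair 2, and ABCA9 to -0.0070 and ABCD2 to -0.057 without pair 3. The cause was not tested. The other 9 named members kept their direction, but 1 left-out array changed the size of several differences by over 1.5 times: ABCA10 ran from 0.34 to 0.87, ABCA13 from 0.047 to 0.27, ABCB8 from -0.58 to -0.23, ABCC2 from 0.16 to 0.39, ABCC4 from 0.19 to 0.58, ABCG2 from 0.20 to 0.43 and ABCG4 from -0.25 to -0.049. ABCD2 ran from 0.12 to 0.51 and ABCG1 from -0.39 to -0.076. The block changed no call other than those given. The number of arrays and the lack of detection flags limit the dim members.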
